A study of Rattus norvegicus with 3 samples.

Results

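Neurotransmitter receptor genes were examined in RNA of the acellular fraction of rat spinal cord, the supernatant left after tissue had been digested in the cold with a protease and its cells had been pelleted. The members were the entries whose gene symbol begins with the name of a receptor family for glutamate (GRIA, GRIN, GRIK, GRID, GRM), GABA (GABR, GABBR), glycine (GLRA, GLRB), acetylcholine (CHRN, CHRM), serotonin (HTR), noradrenaline (ADRA, ADRB), dopamine (DRD) or nucleotides (P2RX, P2RY). The rule found 47 genes, each listed once, among 12758 symbols. RefSeq holds 118 protein-coding rat symbols with these beginnings, so the 47 cover part of each family, from 0 of 5 muscarinic and 2 of 16 nicotinic acetylcholine receptor genes to both GABA-B genes, and the others were not analysed here. All 47 symbols name receptor subunits or receptors, so the label holds for every member.

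The animals were female Sprague Dawley rats, 3 months old, with no genetic change named in the sources. The No-SCI group had a laminectomy at T9 alone, and the SCI group had the laminectomy and a contusion of 250 kdyne, so the surgery was common to both. About 24 h later a piece of cord just rostral to the injury was taken, which can hold nerve fibers, glia, vessels and meninges. The labels give 2 No-SCI libraries and 1 SCI library, while the methods state 2 animals per condition.

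The deposited values are 1 FPKM value per group and gene (fragments scaled to transcript length and to library size), estimated by the authors over the libraries of a group. No value per library and no count was used here, so the spread between animals is unknown and the depth behind a single value cannot be read from the table, although the study names a read number common to its samples. No SD, n, confidence interval or replicate test can be given, and every comparison below describes 2 group values. A gene is called past 2-fold where its log2 ratio (SCI divided by No-SCI) is at least 1 in size. Over all symbols the median log2 ratio was −0.12, and setting that median to 0 moves every log2 ratio up by 0.12. The lowest value in either group is 1, and 9 members in No-SCI and 21 in SCI lay below 2 FPKM, where the ratio depends on whether a constant had been added to the values. Spinal cord markers were listed in part. Of 12 neuronal markers 10 had an entry (SNAP25 and NEFM did not), and so did 7 of 12 astrocyte markers (not GFAP, AQP4, SLC1A3, ALDOC or S100B) and 9 of 10 oligodendrocyte markers (not MBP).

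Receptors of 2 kinds are among the 47. Ligand-gated channels are assembled from several subunits around a pore, cation-conducting for glutamate, acetylcholine and ATP, and chloride-conducting for GABA and glycine, and the choice of subunits sets their speed, their ion selectivity and their drug sensitivity. G-protein-coupled receptors act more slowly through Gi, Gq or Gs proteins. In the spinal cord glutamate carries fast excitation, glycine and GABA carry fast inhibition, and serotonin and noradrenaline arrive from the brainstem in descending fibers, while several metabotropic glutamate and nucleotide receptors are known from astrocytes and microglia as well as from neurons.

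Most receptor genes were listed at low levels, and more of them were lower than higher after SCI. The median member was at 3.88 FPKM in No-SCI and 2.67 FPKM in SCI, at a median percentile of 16.1 and 10.7 among all symbols. Of the 47 genes, 36 were lower and 11 higher in SCI, with a median log2 ratio of −0.71 against −0.12 for all symbols. Of all 12758 symbols, 7190 were lower and 5568 higher, which is the background for each count of lower genes below. With the median of all symbols set to 0, 33 of the 47 genes were lower and 14 higher, as DRD4, P2RX4 and P2RY14 then had ratios above 0. At least 2-fold lower were 17 genes (36.2%), where the background over all 12758 symbols was 12.1%. None was at least 2-fold higher, against 7.93% of all symbols. No replicate test stands behind these counts, and in bulk RNA fewer cells of a type and less RNA per cell cannot be told apart. The share past 2-fold downward was above that of all symbols at each level of expression, with bands set after the values were seen. Under a mean of 3 FPKM it was 5 of 22 genes (22.7%, background 8.74%), from 3 to 10 FPKM 7 of 14 (50%, background 15.1%), and from 10 FPKM upward 5 of 11 (45.5%, background 11.3%).

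**Figure D1:**
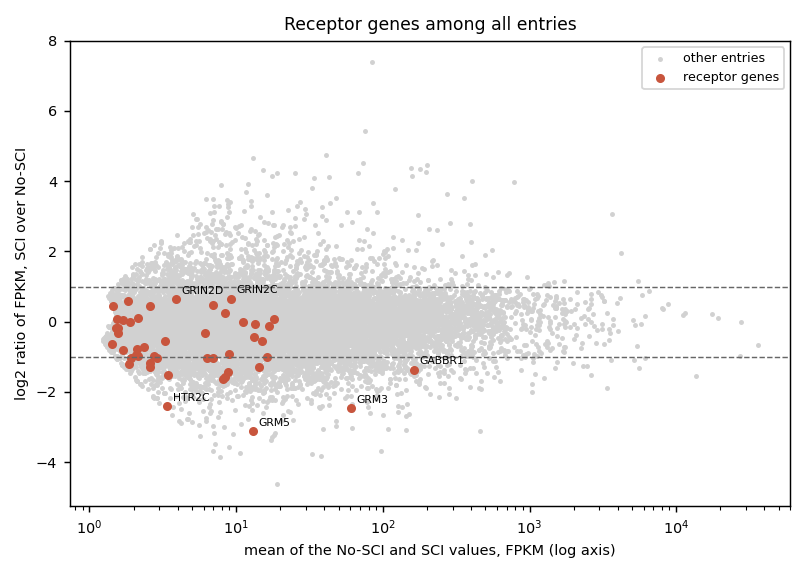
Log2 ratio of SCI over No-SCI (vertical axis) against the mean of both group values in FPKM (horizontal log axis) for the 47 receptor genes (red) and all other symbols (grey), with dashed lines at 2-fold. The 17 genes below the lower line span the range from 1.85 FPKM (GRIK2) to 162 FPKM (GABBR1), and no receptor gene reaches the upper line.

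GABBR1 and GRM3 made up 51.0% of the summed FPKM of all members in No-SCI and 34.0% in SCI. The sum over the 47 genes was 659 FPKM in No-SCI and 322 FPKM in SCI, and without these 2 genes it was 323 and 212 FPKM, a log2 ratio of −0.60. By mode of action, 22 of 28 ligand-gated channel genes were lower and 9 were past 2-fold, with a median log2 ratio of −0.80. Among the 19 G-protein-coupled receptor genes 14 were lower and 8 past 2-fold, with a median of −0.54. Gi-coupled receptors had 10 of 11 genes lower and a median log2 ratio of −0.65, and Gq-coupled receptors 4 of 7 and a median of −0.12. The Gq count and median lay near those of all symbols (7190 of 12758 lower, median −0.12). The Gq group was spread most widely, from −3.11 for GRM5 to 0.45 for P2RY1.

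**Figure D2:**
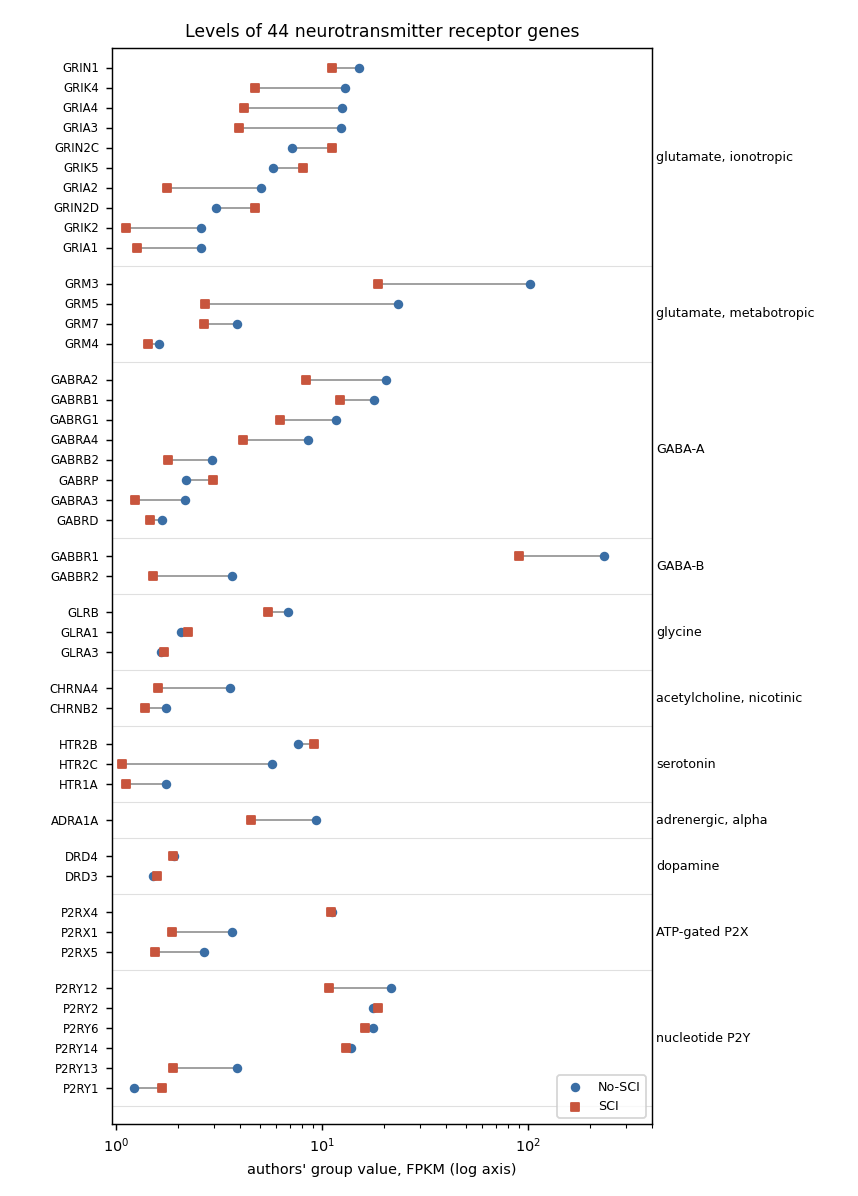
The authors' FPKM value (horizontal log axis) of 44 receptor genes in No-SCI (blue circles) and SCI (red squares), grouped by receptor class and ordered by the No-SCI value. Circles lie to the right of squares for most glutamate and GABA receptor genes, GABBR1 and GRM3 are the most abundant, and NMDA subunits GRIN2C and GRIN2D have the square on the right.

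The promoters of 4 of the genes with the largest ratios or pairings are shown, as RefSeq gives the 300 bases around the gene start in the GRCr8 assembly. The deposited values were made on the rn6 assembly, so the position is that of RefSeq and was not taken from the study. GRM5 and HTR2C had the largest downward ratios among genes with a promoter in that set, and GABBR1 and GABBR2 encode the partners of 1 receptor. Capitals mark GC boxes (GGGCGG, or CCGCCC on the other strand), the known binding letters of SP1.
GRM5 (GRCr8 chr1:150733503-150733802, plus strand): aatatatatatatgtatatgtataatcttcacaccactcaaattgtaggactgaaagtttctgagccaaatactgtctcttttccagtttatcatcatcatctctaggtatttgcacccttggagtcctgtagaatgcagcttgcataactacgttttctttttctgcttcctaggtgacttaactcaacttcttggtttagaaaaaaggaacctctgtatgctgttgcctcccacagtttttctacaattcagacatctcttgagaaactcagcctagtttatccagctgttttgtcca
HTR2C (GRCr8 chrX:115452940-115453239, plus strand): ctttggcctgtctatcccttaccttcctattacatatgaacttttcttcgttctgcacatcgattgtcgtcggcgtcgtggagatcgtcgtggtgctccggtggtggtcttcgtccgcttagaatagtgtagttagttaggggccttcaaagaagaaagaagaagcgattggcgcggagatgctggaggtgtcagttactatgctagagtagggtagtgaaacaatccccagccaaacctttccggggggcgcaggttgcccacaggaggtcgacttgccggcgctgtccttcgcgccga
GABBR1 (GRCr8 chr20:1499187-1499486, minus strand): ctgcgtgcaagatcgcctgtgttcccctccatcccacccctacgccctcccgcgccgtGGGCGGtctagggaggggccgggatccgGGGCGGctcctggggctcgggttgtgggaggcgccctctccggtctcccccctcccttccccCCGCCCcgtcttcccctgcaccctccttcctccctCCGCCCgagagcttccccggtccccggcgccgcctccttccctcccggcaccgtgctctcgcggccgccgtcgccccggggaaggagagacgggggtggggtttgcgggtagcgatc
GABBR2 (GRCr8 chr5:66083646-66083945, minus strand): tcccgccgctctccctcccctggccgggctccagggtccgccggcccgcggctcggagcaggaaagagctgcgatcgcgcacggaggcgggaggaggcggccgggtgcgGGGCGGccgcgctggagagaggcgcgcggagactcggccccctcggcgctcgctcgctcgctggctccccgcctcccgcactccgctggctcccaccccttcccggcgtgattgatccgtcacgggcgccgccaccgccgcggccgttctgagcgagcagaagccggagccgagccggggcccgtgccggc

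Of the 47 genes 31 had a promoter in the RefSeq set, and 14 of these (45.2%) held a GC box, compared with 33.1% of all 33469 promoters of the same length. The receptor genes were taken with a single promoter per symbol, while the comparison set held every promoter of that length, so the shares come from unlike sets. GABBR1 held 4 GC boxes and GABBR2 1, with 32 and 47 CpG dinucleotides, whereas GRM5 and HTR2C held none, with 1 and 22 CpG. Among the genes at least 2-fold lower 4 of 10 promoters (40%) had a GC box, and among the other receptor genes 10 of 21 (47.6%). A match describes letters in this window and says nothing of binding in these samples.

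Glutamate receptors held the largest downward ratios. Of 15 genes 12 were lower, 8 were past 2-fold, and the median log2 ratio was −1.03. The metabotropic receptors GRM3 and GRM5 led the list. GRM5, the Gq-coupled mGlu5 receptor that signals through phospholipase C, was at 23.3 FPKM in No-SCI and 2.69 FPKM in SCI, 8.64-fold lower with a log2 ratio of −3.11. Its percentile among all symbols went from 57.1 to 10.8. GRM3, the Gi-coupled mGlu3 receptor found on astrocytes as well as neurons, was at 103 FPKM in No-SCI and 18.7 FPKM in SCI, 5.495-fold lower with a log2 ratio of −2.46. It remained the second most abundant member by the No-SCI value and was the third by the SCI value. The other 2 metabotropic genes differed less. GRM7, a presynaptic Gi-coupled receptor, was at 3.88 and 2.67 FPKM (log2 ratio −0.54), and GRM4, also Gi-coupled, at 1.61 and 1.42 FPKM (−0.18), so each stood at under 4 FPKM in both groups. The summed metabotropic level was 132 FPKM in No-SCI and 25.5 FPKM in SCI.

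The 4 AMPA receptor subunits, which form the channels of fast excitatory transmission, were all past 2-fold, GRIA1 only narrowly. GRIA3 was at 12.4 FPKM in No-SCI and 3.97 FPKM in SCI (log2 ratio −1.64), and GRIA4 at 12.5 and 4.16 FPKM (−1.59). GRIA2, whose edited protein keeps calcium from passing, was at 5.05 and 1.77 FPKM (−1.51), and GRIA1 at 2.58 and 1.27 FPKM (−1.03). As listed, the subunits kept similar proportions of the summed AMPA level, which was 32.5 FPKM in No-SCI and 11.2 FPKM in SCI. GRIA2 made up 15.5% and 15.9% of the sum, GRIA3 38.1% and 35.5%, GRIA4 38.5% and 37.3%, and GRIA1 7.93% and 11.3%. GRIA1 and GRIA2 lay below 2 FPKM in SCI, so these shares depend on the scale. With 1 subtracted from both values the log2 ratios of GRIA1, GRIA2, GRIA3 and GRIA4 were −2.57, −2.39, −1.94 and −1.87. The value of GRIA1 in SCI lay close to the lowest value of the table, and its log2 ratio was −0.91 with the median of all symbols at 0 and −0.66 with a pseudocount of 1, both short of 2-fold.

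NMDA receptor subunits showed another pattern. GRIN1, the subunit that every NMDA receptor contains, was at 15.2 FPKM in No-SCI and 11.2 FPKM in SCI, a log2 ratio of −0.43. GRIN2C was at 7.14 and 11.2 FPKM (log2 ratio 0.65) and GRIN2D at 3.04 and 4.71 FPKM (0.63). These subunits give slow deactivation and weak magnesium block. GRIN2C and GRIN2D had the 2 largest upward ratios of all 47 genes, and neither reached 2-fold. The summed level of the 3 listed NMDA genes was 25.3 FPKM in No-SCI and 27.2 FPKM in SCI. GRIN2A, GRIN2B, GRIN3A and GRIN3B had no entry, while all 4 AMPA subunits were listed. The ratio of this partial NMDA sum to the AMPA sum was 0.779 in No-SCI and 2.43 in SCI. It does not describe the NMDA family as a whole. Relative to GRIN1, the level of GRIN2C stood at 0.471 in No-SCI and 0.999 in SCI, while that of GRIN2D was 0.2005 and 0.419.

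Kainate receptor subunits split. GRIK4, a high-affinity subunit, was at 12.9 FPKM in No-SCI and 4.75 FPKM in SCI (log2 ratio −1.44). GRIK2, which can form channels by itself, was at 2.59 and 1.11 FPKM (−1.22), the latter near the lowest value of the table. GRIK5, the other high-affinity subunit, was at 5.79 FPKM in No-SCI and 8.11 FPKM in SCI (0.49). Its share of the summed level of the listed kainate genes was 27.3% and 58.1%.

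**Figure D3:**
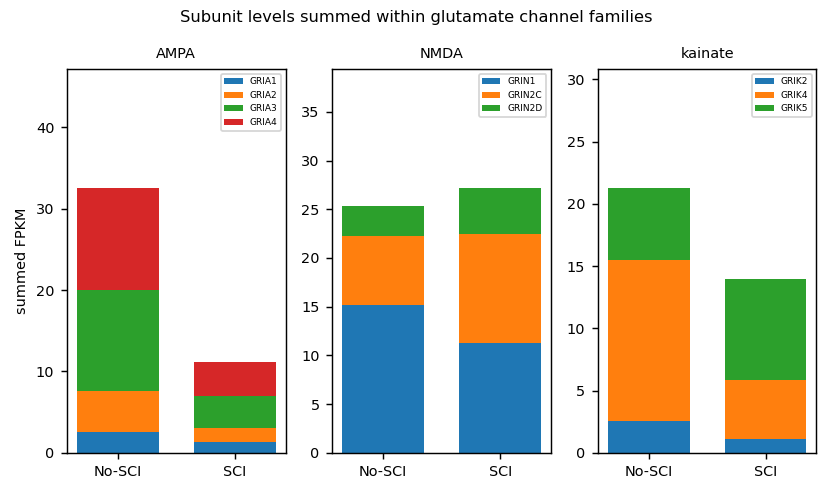
Summed FPKM (vertical axis, from 0, scaled separately in each panel) of the listed AMPA, NMDA and kainate subunit genes in No-SCI and SCI. Each subunit is a coloured segment. The AMPA stack was 32.5 FPKM high in No-SCI and 11.2 FPKM in SCI with similar proportions, the NMDA stack stayed near its height with a larger GRIN2C segment, and the kainate stack was lower in SCI.

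Receptors for GABA were lower in 10 of 11 genes, 4 of them past 2-fold, with a median log2 ratio of −0.91. GABA-B receptors work as pairs of GABBR1, which binds GABA, and GABBR2, which couples to Gi. GABBR1 was the most abundant of all members, at 233 FPKM in No-SCI and 90.7 FPKM in SCI (log2 ratio −1.36), at percentiles 93.1 and 83.9. GABBR2 was at 3.67 FPKM in No-SCI and 1.51 FPKM in SCI (−1.28). The level of GABBR1 relative to GABBR2 was 63.6 in No-SCI and 60.1 in SCI as listed. GABBR2 in SCI was near the lowest value of the table, so this ratio depends on the scale. With 1 subtracted from both values the log2 ratio was −1.37 for GABBR1 and −2.39 for GABBR2, and with a pseudocount of 1 it was −1.35 and −0.90.

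GABA-A receptors are chloride channels of mostly alpha, beta and gamma subunits. Of 9 genes 8 were lower and 2 past 2-fold, both alpha subunits. GABRA2 was at 20.4 FPKM in No-SCI and 8.39 FPKM in SCI (log2 ratio −1.29), GABRA4 at 8.52 and 4.13 FPKM (−1.05), and GABRA3 at 2.17 and 1.23 FPKM (−0.82). GABRA4 was short of 2-fold with the median of all symbols at 0 (−0.93) and with a pseudocount of 1 (−0.89). The alpha subunits summed to 31.1 FPKM in No-SCI and 13.7 FPKM in SCI. GABRG1, a gamma subunit, came close to 2-fold. It was at 11.7 FPKM in No-SCI and 6.22 FPKM in SCI (−0.91). The beta subunits differed less, with GABRB1 at 17.9 and 12.2 FPKM (−0.56) and GABRB2 at 2.91 and 1.78 FPKM (−0.71). GABRB1 was thereby the GABA-A gene with the highest SCI value, while GABRA2 had the highest No-SCI value. GABRD, the delta subunit of extrasynaptic receptors, was at 1.66 and 1.46 FPKM (−0.19). GABRP, the pi subunit found mainly outside the nervous system, was the exception with 2.18 FPKM in No-SCI and 2.96 FPKM in SCI (0.44).

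Glycine receptor genes lay near the value of all symbols. GLRB, the beta subunit that anchors the channel to gephyrin, was at 6.82 FPKM in No-SCI and 5.47 FPKM in SCI (log2 ratio −0.32). GLRA1, the main adult alpha subunit, was at 2.08 and 2.24 FPKM (0.11), and GLRA3, an alpha subunit of the dorsal horn, at 1.66 and 1.70 FPKM (0.04). None was past 2-fold. All 3 were under 7 FPKM in both groups, and the alpha subunits were near 2 FPKM, where a difference would be understated if a constant had been added.

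**Figure D4:**
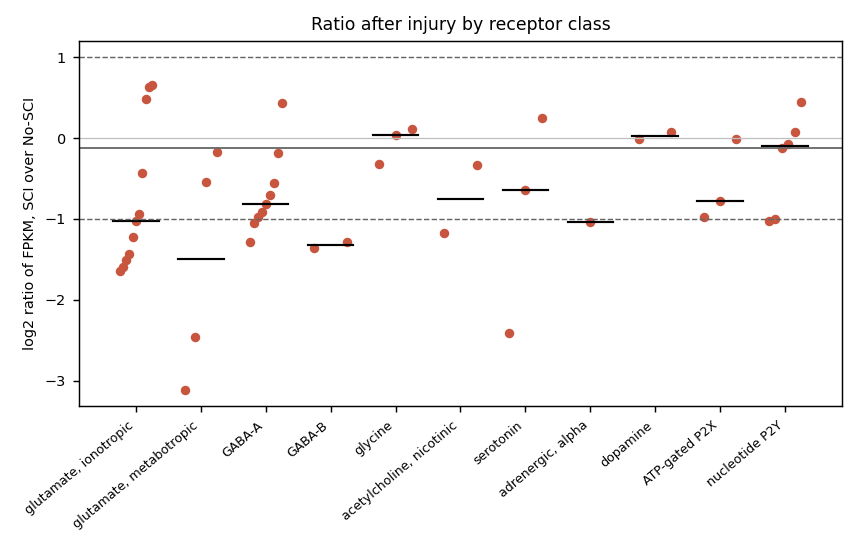
Log2 ratio of SCI over No-SCI for receptor genes (points) by class, with a black bar at the class median, a grey line at the median of all symbols (−0.12) and dashed lines at 2-fold. The ionotropic and metabotropic glutamate, GABA-B and alpha adrenergic (1 gene) medians lie below −1, and the glycine, dopamine and P2Y medians lie near the grey line.

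The 2 acetylcholine receptor genes, CHRNA4 and CHRNB2, encode the subunits of the main nicotinic receptor of the brain. CHRNA4 was at 3.58 FPKM in No-SCI and 1.59 FPKM in SCI (log2 ratio −1.17), and CHRNB2 at 1.74 and 1.39 FPKM (−0.33). The level of CHRNA4 relative to CHRNB2 was 2.06 and 1.15 as listed. All but the No-SCI value of CHRNA4 lay below 2 FPKM, so this ratio depends on the scale. With 1 subtracted from both values the log2 ratio was −2.13 for CHRNA4 and −0.94 for CHRNB2. With a pseudocount of 1 it was −0.82 and −0.20. Among the 3 serotonin receptors HTR2C, a Gq-coupled receptor of spinal motor neurons whose RNA is edited, was at 5.72 FPKM in No-SCI and 1.07 FPKM in SCI, 5.34-fold lower with a log2 ratio of −2.42, the third largest in size of all members. Its SCI value was at percentile 0.459 of all symbols, next to the lowest value of the table, so the size of the ratio depends on the scale. It was −1.70 with a pseudocount of 1 and −6.02 with 1 subtracted from both values. HTR1A, a Gi-coupled receptor, was at 1.75 and 1.12 FPKM (−0.65), and HTR2B, a Gq-coupled receptor also known from vessels and fibroblasts, at 7.63 FPKM in No-SCI and 9.10 FPKM in SCI (0.25).

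For noradrenaline, ADRA1A, a Gq-coupled alpha-1 receptor, was at 9.32 FPKM in No-SCI and 4.54 FPKM in SCI (log2 ratio −1.04), and with the median of all symbols at 0 its ratio was −0.92, short of 2-fold. The dopamine receptors DRD3 and DRD4, both Gi-coupled, were at 1.504 and 1.58 FPKM (0.07) and at 1.91 and 1.89 FPKM (−0.02). Both dopamine receptor genes were at or below percentile 5.22 of all symbols in both groups.

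Nucleotide receptors had the highest median level of the transmitter groups, 11.1 FPKM in No-SCI and 10.8 FPKM in SCI. Of 9 genes 7 were lower, 2 of them past 2-fold, and the median log2 ratio was −0.12, as for all symbols. The Gi-coupled ADP receptors P2RY12 and P2RY13, both known from microglia, were the 2 past 2-fold. P2RY12 was at 21.5 FPKM in No-SCI and 10.8 FPKM in SCI, a log2 ratio of −1.001 that just reached 2-fold, and P2RY13 at 3.85 and 1.89 FPKM (−1.02). With the median of all symbols at 0 they were at −0.88 and −0.91, and with a pseudocount of 1 at −0.94 and −0.74, so neither was past 2-fold on those scales. The receptors for UDP, UTP and UDP-sugars stayed close to their No-SCI level. P2RY6 was at 17.6 and 16.2 FPKM (−0.12), P2RY2 at 17.7 and 18.7 FPKM (0.08), and P2RY14 at 13.7 and 13.1 FPKM (−0.07). P2RY12 had the highest No-SCI value among nucleotide receptors and ranked below P2RY2, P2RY6, P2RY14 and P2RX4 by the SCI value, and its level relative to P2RY6 was 1.22 in No-SCI and 0.666 in SCI. P2RY1, another ADP receptor, was at 1.23 and 1.67 FPKM (0.45). Among the ATP-gated channels, P2RX4 was at 11.1 FPKM in both groups (−0.0082). P2RX1, known from smooth muscle and platelets, was at 3.66 and 1.87 FPKM (−0.97), and P2RX5 at 2.66 and 1.55 FPKM (−0.78), both short of 2-fold.

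The proteins that hold, assist and couple these receptors were read from lists fixed with earlier results of these data known. Of 32 auxiliary and scaffold proteins of glutamate receptors 21 were listed, 12 lower and 9 higher in SCI, with 1 gene past 2-fold in each direction and a median log2 ratio of −0.09. That split and that median lay near those of all symbols. DLG2, the scaffold PSD-93, was at 42.2 FPKM in No-SCI and 9.06 FPKM in SCI (−2.22). HOMER2, a scaffold that binds mGlu5, was at 12.6 and 38.6 FPKM (1.62), and its relatives HOMER1 and HOMER3 had log2 ratios of 0.67 and −0.02, beside the −3.11 of GRM5. The AMPA receptor auxiliary subunits CACNG2, CACNG3 and CACNG4 had log2 ratios of −0.30, −0.57 and −0.74, none past 2-fold. CNIH2, another AMPA receptor auxiliary protein, was at 6.08 FPKM in No-SCI and 11.9 FPKM in SCI (0.98), also short of 2-fold. The most abundant genes of the list were DLGAP1 with 228 FPKM, DLGAP4 with 152 FPKM and DLG1 with 138 FPKM in No-SCI, with log2 ratios of −0.50, 0.77 and 0.09.

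Partner proteins of GABA, glycine and acetylcholine receptors were lower in 12 of 13 listed genes, 4 of them past 2-fold, with a median log2 ratio of −0.82. GPHN, which encodes the scaffold gephyrin, was at 193 FPKM in No-SCI and 91.3 FPKM in SCI (−1.08). GABARAPL2, a relative of GABARAP, was at 307 and 166 FPKM (−0.89), short of 2-fold. LYNX1, a brake on nicotinic receptors, was at 11.5 and 5.42 FPKM (−1.09), and MUSK, a kinase of the neuromuscular junction, at 4.09 and 1.52 FPKM (−1.42). GABARAP, an adaptor with a role in autophagy as well, was the only one higher, at 710 and 780 FPKM (0.14).

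Among G proteins, arrestins and receptor kinases 15 of 23 listed genes were lower, with a median log2 ratio of −0.43. Only 1 was past 2-fold downward (4.35%, background 12.1%). This was GNAZ, a Gi-family alpha subunit, at 5.89 FPKM in No-SCI and 2.92 FPKM in SCI (log2 ratio −1.01). GNAI2, GNB2 and GNAQ were the most abundant, with 448, 338 and 237 FPKM in No-SCI and log2 ratios of 0.05, −0.21 and 0.33. Genes for transmitter synthesis, vesicular transport and breakdown were listed for 17 of 27, with 13 lower and a median of −0.36. The most abundant was GLUL, which makes glutamine from glutamate, at 5858 and 5624 FPKM (−0.06). The neuronal genes were listed at low levels. GAD1, which makes GABA, was at 5.998 and 4.97 FPKM (−0.27), SLC17A6, a vesicular glutamate transporter, at 2.14 and 1.67 FPKM (−0.36), and SLC32A1, the vesicular transporter of GABA and glycine, at 1.80 and 1.19 FPKM (−0.60). SLC17A7, another vesicular glutamate transporter, was higher at 4.69 and 5.06 FPKM (0.11), and SLC18A3 was nearly level at 1.54 and 1.48 FPKM (−0.06). MAOB, a monoamine-degrading enzyme, was past 2-fold at 44.8 FPKM in No-SCI and 14.5 FPKM in SCI (−1.63). The enzymes ENTPD1, which breaks down ATP and ADP, and ADA, which degrades adenosine, were past 2-fold upward, at 6.44 and 19.3 FPKM (1.58) and at 4.31 and 24.5 FPKM (2.51).

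Markers of the cells that could supply receptor RNA moved as well, and their part in the receptor values was not tested. Neuronal markers were lower in 9 of 10 listed genes, 5 past 2-fold, with a summed level of 628 FPKM in No-SCI and 322 FPKM in SCI and a median log2 ratio of −0.97, beside −0.71 for the receptor genes. Astrocyte markers, set beside GRM3 and GRM5, were past 2-fold downward in 6 of 7 (sum 8231 and 3347 FPKM, median log2 ratio −1.42). NDRG2 made up nearly all of that sum, at 8001 and 3228 FPKM. GJA1 was at 92.3 and 34.5 FPKM, and GJB6 went the other way, at 41.7 and 48.9 FPKM (0.23). Oligodendrocyte markers were lower in 9 of 9, 6 past 2-fold (sum 52364 and 29996 FPKM, median −1.62). MOBP made up most of that sum, at 44200 and 27648 FPKM (−0.68). Oligodendrocyte precursor markers were lower in 4 of 6, 2 past 2-fold (sum 96.1 and 87.0 FPKM), with PTPRZ1 at 19.5 and 5.52 FPKM.

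Microglia and macrophage markers, which stand beside the P2Y receptors, were split with 6 higher and 6 lower of 12, and a sum of 996 FPKM in No-SCI and 1135 FPKM in SCI. CX3CR1 (log2 ratio −1.25) and CSF1R (−1.17) were past 2-fold downward, and C1QC (1.16) and CD68 (1.43) were past 2-fold upward. Meningeal fibroblast markers were past 2-fold upward in 8 of 8 (sum 52.05 and 812 FPKM), and skeletal muscle markers were lower in 8 of 8, 7 past 2-fold (sum 424 and 43.9 FPKM), beside MUSK. Endothelial markers were higher in 4 of 7 (sum 49.8 and 71.6 FPKM), mural markers in 4 of 7 (sum 431 and 553 FPKM), and leukocyte and platelet markers in 2 of 6 (sum 97.5 and 169 FPKM). TAGLN made up most of the mural sum, at 383 and 517 FPKM. In the leukocyte and platelet list the 2 higher genes were S100A8, at 32.4 and 94.1 FPKM, and S100A9, at 14.3 and 46.6 FPKM. The other 4 were lower, with LCN2 at 39.4 and 21.8 FPKM, and the list median log2 ratio was −0.67.

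**Figure D5:**
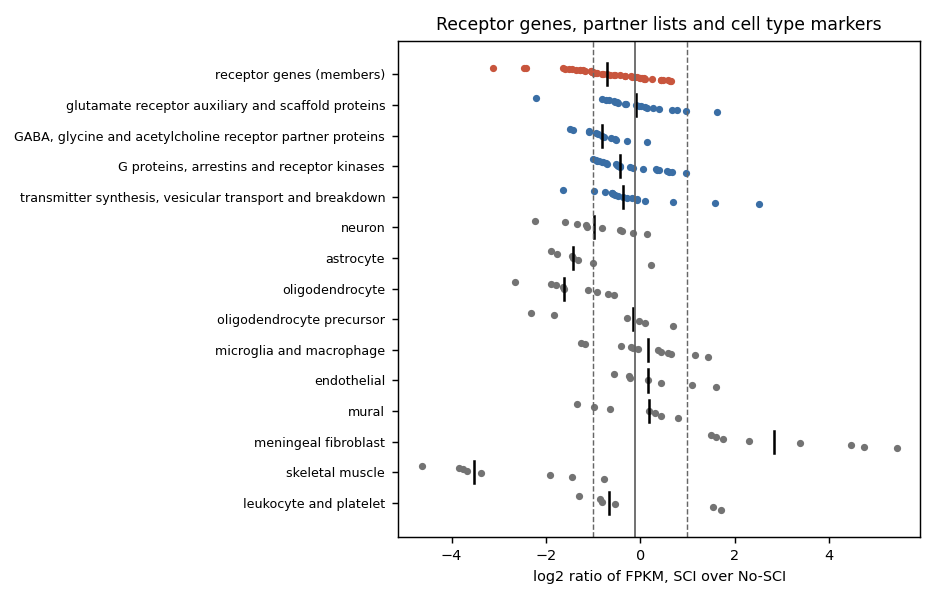
Log2 ratio of SCI over No-SCI (horizontal axis) for the genes of each list (points), the receptor genes in red, partner lists in blue and cell type markers in grey, with a black bar at each median, a grey line at the median of all symbols and dashed lines at 2-fold. The receptor genes lie on the lower side like the neuronal, astrocyte and oligodendrocyte markers, while the meningeal fibroblast markers lie above 2-fold.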

How the data were processed

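RNA of the acellular fraction was depleted of ribosomal RNA and sequenced as strand-specific total RNA libraries, 2 labelled No-SCI and 1 labelled SCI. Reads of each library were cut by the authors to the size of the smallest, mapped to rn6 with STAR 2.5.4b and quantified with Cuffdiff 1.3.0 under upper quartile scaling. The values deposited by the authors are FPKM estimates, 1 per group, on a linear scale. How entries of a symbol were joined is not given in the sources used here. The authors' own columns of fold change, log2 fold change, p-value, q-value and significance were not used. The study's methods name a read number common to all samples, but the table gives no depth per value, and low values were not used to recover reads because the lowest value is 1 and values are group estimates.

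Where a symbol had 2 entries (13 symbols), that of higher mean level was kept, and no receptor gene was among them. All 47 receptor genes entered every count, with no filter on low values. Log2 ratios of SCI to No-SCI were computed without a pseudocount. A gene was called past 2-fold where that ratio was at least 1 in size. No test was run, since a single value per group allows none. The receptor genes, classes and gene lists were chosen with earlier results of these data known. Genes named were those past 2-fold, the 3 most abundant of each class, those within 0.5 of the lowest value and the others where a class is given in full. For partner lists these were genes past 2-fold and the 3 most abundant, and for marker lists the 2 most abundant and those absent. HOMER1, HOMER3, CACNG2, CACNG3, CACNG4, CNIH2, GAD1, SLC17A6, SLC17A7, SLC18A3, SLC32A1, GJB6, PDGFRA, PTPRZ1, CX3CR1, CSF1R, C1QC and CD68 were chosen after their values were seen. So was S100A9. Some genes are not reported here by name, though they enter the counts. Alternatives were a pseudocount of 1, 1 subtracted from both values, median centring, equal upper quartile, equal total, a mean of at least 5 FPKM, both values of at least 2 FPKM, summed entries, thresholds of 1.5-fold and 3-fold, list means and leaving out nucleotide receptors. The ratio and call steps were tested on simulated data. Promoters and symbols came from RefSeq (GRCr8), with 47 of 47 symbols matched. Python 3.11.15, numpy 2.4.6, pandas 2.3.3 and matplotlib 3.10.9 were used. The number of measurement columns left without a group was 0.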

Additional observations from a re-analysis of the deposited data

How the results depend on the processing

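With 1 value per group and no counts, the limits set by sequencing depth and by the spread between animals could not be measured from the table, and no library could be left out. No paired analysis was possible because the groups share no replicate number and the values carry none. Of the 47 receptor genes 44 kept the sign of their log2 ratio in every alternative run for single genes, and DRD4, P2RX4 and P2RY14, all close to 0, did not. In 9 of the 17 genes the ratio stayed at least 2-fold lower in each of those alternatives. The count at least 2-fold lower, with the share of all symbols in parentheses, was 17 as reported (12.1%), 9 with a pseudocount of 1 (9.53%), 25 with 1 subtracted from both values (16.2%), 12 with the median of all symbols at 0 (9.59%), 12 with equal upper quartiles (9.87%) and 13 with equal totals (11.1%). It was 10 among the 21 genes with a mean of at least 5 FPKM (12.1%), 10 among the 25 genes with both values of at least 2 FPKM (11.5%, chosen after seeing the data), 25 at 1.5-fold (26.3%) and 5 at 3-fold (3.27%). GRIA1, ADRA1A, P2RY12 and P2RY13 were short of 2-fold in all 3 scalings and with the pseudocount, GABRA4 in the first 2 scalings and with the pseudocount, and GRIK2, GABBR2 and CHRNA4 with the pseudocount. The count at least 2-fold higher was 0 as reported (7.93%), 2 with 1 subtracted (10.4%, among them P2RY1) and 3 at 1.5-fold (16.9%).

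The median log2 ratio of all receptor genes was −0.71 as reported, −0.51 with a pseudocount of 1, −1.07 with 1 subtracted and −0.91 with a mean of at least 5 FPKM. With a pseudocount of 1 the medians were −0.66 for glutamate, −0.65 for GABA and −0.38 for serotonin receptors, and with 1 subtracted −1.87, −1.29 and −2.68. The glutamate median was −1.51 with a mean of at least 5 FPKM. With means in place of medians, glycine receptors reversed from 0.04 to −0.056, nucleotide receptors were at −0.38 and serotonin receptors at −0.94. A median was counted as moved where it changed by 0.2 or more, a limit set here because no replicate spread exists. Leaving out the nucleotide receptors, an alternative chosen after seeing the data, and summing entries moved no reported count by over 1.5 times.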
